A study of Elaeis guineensis with 12 samples.

Results

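The phenotype by organ interaction measures whether the difference between staminodia and carpel is the same in mantled and in normal oil palms. It was taken as the staminodia minus carpel difference in mantled palms minus that in normal palms, on a log2 scale, so that 0 means the same organ difference in both. All 12 of the 12 libraries entered it, 3 in each of 4 groups: mantled staminodia, mantled carpel, normal staminodia and normal carpel. A negative interaction means that staminodia stood lower against carpel in mantled than in normal palms, and a positive one that they stood higher.

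RNA came from florets of clonal Elaeis guineensis palms at stage 3 of floral development, in which the organs had been dissected by laser from frozen material. The staminodia of mantled flowers are the initials of the pseudocarpels. The mantled libraries were from 3 palms and the normal libraries from 2 palms. Normal replicates 1 and 2 were separate pieces of a single inflorescence of normal palm 1, and normal replicate 3 was from normal palm 2. The 2 normal replicates of the same palm were therefore summed within each organ, and every value below with n = 3 and n = 2 counts mantled and normal palms. The labels give no agent, tissue culture history or transgene that separates the palms beyond the phenotype.

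In a normal female flower of the oil palm the carpels fuse into the ovary, and the organs of the male whorl stop early and remain as small sterile staminodia. Mantled palms are a somaclonal variant that arises in tissue culture, in which the male whorl grows into carpel-like organs around the ovary, the pseudocarpels. In the textbook model of flower development, B-function MADS-box genes of the DEFICIENS and GLOBOSA kind act with a C-function gene to give stamens, and the C-function without them gives carpels. Mantled abnormality is known to involve the DEFICIENS gene of the oil palm, through loss of DNA methylation on a transposon inside it. The interaction is the contrast that asks, gene by gene, whether the organ difference itself is altered in mantled flowers.

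Assigned reads per library numbered 2121145 to 8066978, with a median of 3232116. They fell on features whose identifiers are not paired with gene names in the files, so neither floral homeotic nor heat shock genes could be looked up, and the organ labels could not be checked against marker genes. Features were summed to 26087 gene models, of which 16800 passed a filter on low counts and were tested. In bulk tissue of this kind a smaller share of a cell type and less RNA per cell cannot be told apart. Levels are given as CPM, a library's reads on a model as a share of its reads on the tested models. TMM factors balance the libraries, and there is no correction for gene length.

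Of the 16800 gene models tested, 2 had an interaction with an adjusted p under 0.05, which is 0.0119% of the models. They comprised 1 positive and 1 negative interaction, 0.00595% of the models in each direction. The test was the quasi-likelihood test of edgeR with the palm as a block and Benjamini-Hochberg adjustment over all models tested. An unadjusted p under 0.05 was reached by 568 models, 3.38% of those tested, where 840 would be expected without any difference. These comprised 233 positive and 335 negative interactions, beside 7484 positive and 9316 negative over all models tested. The median log2 interaction over all models was -0.115. It was -0.560 under 10 CPM, against -0.087, -0.031 and -0.038 at 10 to 30, 30 to 100 and 100 CPM or more.

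The model with the smallest p was gene maker-p5_sc00322-snap-gene-9.52, a prediction on scaffold p5_sc00322 of which the files list the coding sequence of the first transcript. It had 56.1, 124 and 92.0 CPM in mantled staminodia and 70.7, 80.3 and 49.6 CPM in mantled carpel, in replicates 1, 2 and 3. In normal palms it had 892, 1111 and 915 CPM in staminodia and 86.5, 169 and 230 CPM in carpel. The 3 normal staminodia libraries lay above every other library. Mantled carpel lay below normal carpel in every library, and mantled staminodia overlapped both.

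Within palms, the log2 difference of staminodia minus carpel in this model was -0.32, 0.61 and 0.87 in the 3 mantled palms, against 2.85 and 2.00 in the normal palms, so the phenotypes did not overlap. As ratios, staminodia held 0.801, 1.54 and 1.84 times the carpel level in mantled palms and 7.27 and 4.01 times the carpel level in normal palms. The organ difference of the p5_sc00322 model was thus small and of mixed sign in mantled palms and large in both normal palms. Its means were 91.2 ± 33.5 CPM in mantled staminodia and 67.4 ± 15.6 CPM in mantled carpel (SD, n = 3), against 957 ± 56.9 CPM in normal staminodia and 183 ± 64.6 CPM in normal carpel (SD, n = 2). The interaction was -2.04 on the log2 scale (SE 0.322), a 4.12-fold smaller staminodia to carpel ratio in mantled palms, with an adjusted p of 0.0216 in edgeR.

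Taken singly, normal replicates 1 and 2 of normal palm 1 gave organ differences of 3.35 and 2.71 in the p5_sc00322 model, both above every mantled palm. The call was lost without mantled replicate 1, with an interaction of -1.69 and an adjusted p of 0.0839, without mantled replicate 3 (-2.29, adjusted p = 0.0634) and without normal replicate 2 (-2.28, adjusted p = 0.183), all in edgeR. Over 21 alternatives in all, the interaction of this model ran from -2.46 to -1.61 and it was called in 13, with adjusted p from 1.15e-08 to 1.

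**Figure D1:**
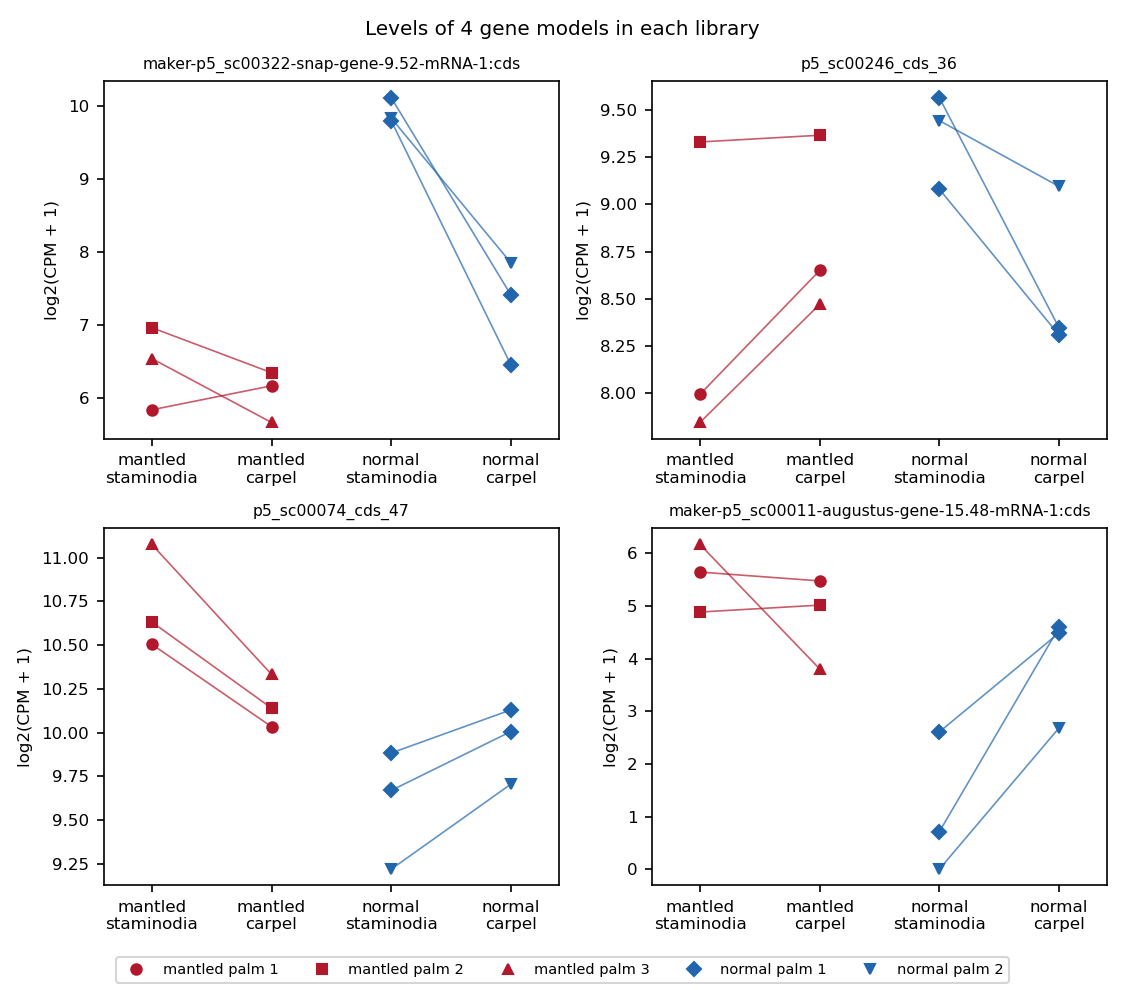
Levels of the 4 named gene models in each library, as log2(CPM + 1) with mantled libraries in red and normal libraries in blue, where each line joins staminodia and carpel of a replicate number and the marker shows the palm. In the model on scaffold p5_sc00322 the lines are steep in the 3 normal pairs and shallow in the 3 mantled pairs, and in p5_sc00074_cds_47 the mantled lines run down and the normal lines up.

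The second model called was p5_sc00074_cds_47, whose interaction was positive. It had 1451, 1585 and 2156 CPM in mantled staminodia and 1047, 1127 and 1288 CPM in mantled carpel. In normal palms it had 813, 943 and 595 CPM in staminodia and 1027, 1119 and 834 CPM in carpel. Mantled staminodia were above every library of the other groups. In each normal pair staminodia were below carpel, while the carpel libraries of the phenotypes overlapped.

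The organ difference of p5_sc00074_cds_47 was 0.49, 0.49 and 0.73 in the mantled palms, against -0.33 and -0.47 in the normal palms. It had opposite signs in the phenotypes, with every mantled palm on one side of 0 and both normal palms on the other. Means were 1744 ± 367 CPM in mantled staminodia and 1164 ± 126 CPM in mantled carpel (SD, n = 3), against 737 ± 199 CPM in normal staminodia and 964 ± 193 CPM in normal carpel (SD, n = 2). The interaction was 0.97 on the log2 scale (SE 0.185), or 1.96-fold, with an adjusted p of 0.0440 in edgeR.

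Normal palm 1 gave -0.34 and -0.25 for p5_sc00074_cds_47 when its replicates 1 and 2 were taken singly. Of the replicates, leaving out mantled replicate 2 or normal replicate 1 kept the call. It was lost in edgeR without mantled replicate 1 (adjusted p = 0.241), mantled replicate 3 (adjusted p = 0.628), normal replicate 2 (adjusted p = 0.0710) or normal replicate 3 (adjusted p = 0.278). The size of the interaction moved little, from 0.87 to 1.04 over 20 alternatives, of which 10 kept the call and whose adjusted p ran from 5.80e-07 to 1.

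The counts of p5_sc00074_cds_47 are a sum over 3 deposited features, which allows its parts to be set side by side, although they share libraries and are not replicates. The first part, with 16697 reads over all libraries, had an interaction of 0.90 (SE 0.256), the second, with 1338 reads, 1.64 (SE 0.701), and the third, with 33666 reads, 0.92 (SE 0.214). All 3 parts went the same way, and in each the lowest mantled palm (0.28, 0.33 and 0.38) was above the highest normal palm (-0.25, -0.47 and -0.37). None passed on its own in the edgeR fit on features, where their adjusted p was 0.472, 1 and 0.0634. The other 3 named models are single features.

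The negative interaction next in rank belonged to p5_sc00246_cds_36 and was not called. Its levels were 254, 643 and 229 CPM in mantled staminodia and 401, 659 and 354 CPM in mantled carpel, against 540, 757 and 696 CPM in normal staminodia and 316, 324 and 546 CPM in normal carpel. Between palms the groups overlapped, since mantled palm 2 lay within the range of normal staminodia in both organs. Within palms they did not, with organ differences of -0.64, -0.04 and -0.64 in mantled palms against 0.97 and 0.36 in normal palms. The interaction of p5_sc00246_cds_36 was -1.11 (SE 0.242, adjusted p = 0.197 in edgeR). It passed in 6 of 21 alternatives, with a range of -1.41 to -0.80 and adjusted p from 0.00890 to 1.

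The positive interaction next in rank, that of gene maker-p5_sc00011-augustus-gene-15.48 on scaffold p5_sc00011, was not called either. The model had 49.0, 28.5 and 70.9 CPM in mantled staminodia and 43.5, 31.3 and 13.0 CPM in mantled carpel. In normal staminodia it had 5.10, 0.639 and 0 CPM, from 20, 2 and 0 reads, and in normal carpel 21.5, 23.1 and 5.43 CPM. All mantled staminodia libraries were above all normal staminodia libraries, where the 0 in normal palm 2 allows a level of up to 1.43 CPM, taking 3 reads in that library as the floor.

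The organ difference of the p5_sc00011 model was 0.18, -0.13 and 2.35 in the mantled palms, against -2.52 and -2.68 in the normal palms. Mantled palms 1 and 2 were close to 0 and mantled palm 3 stood apart from them. The value of normal palm 2 rests on 0 reads in staminodia against 13 in carpel and was -3.56 with a pseudocount of 0.5 and -1.06 with one of 5. Replicates 1 and 2 of normal palm 1 gave -1.88 and -3.88 when taken singly. Both normal palms were below every mantled palm with each pseudocount, but the size of the difference depended on it. Means were 49.9 ± 21.3 CPM in mantled staminodia and 29.5 ± 15.5 CPM in mantled carpel (SD, n = 3), against 1.57 ± 2.22 CPM in normal staminodia and 14.1 ± 12.3 CPM in normal carpel (SD, n = 2). The interaction was 4.03 (SE 0.939, adjusted p = 0.346 in edgeR). It ranged from 2.12 to 8.06 over 20 alternatives, of which 5 called it, with adjusted p from 0.0210 to 1, and the highest value came without normal palm 1, where the only normal staminodia library left had no read.

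Beyond the named models, the 20 models of smallest p comprised 13 negative and 7 positive interactions. These values were picked by the interaction itself and are a description only. All 20 had mantled and normal palms that did not overlap in their organ difference. Over all 16800 models, all mantled palms lay below both normal palms in 1885 models, or 11.2%. All mantled palms lay above both normal palms in 1346 models, or 8.01%. With so few palms, shares of about this size also arise when phenotype labels are given to the palms at random. These shares were not tested and are a description only. By level, the shares below and above were 12.6% against 5.46% under 10 CPM and 10.1% against 8.54% at 10 to 30 CPM. At 30 to 100 CPM fewer models lay below (9.40%) than above (10.6%), and at 100 CPM or more the shares were 12.6% against 9.84%. The plot of organ differences per palm for these 20 models shows each palm's value.

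**Figure D2:**
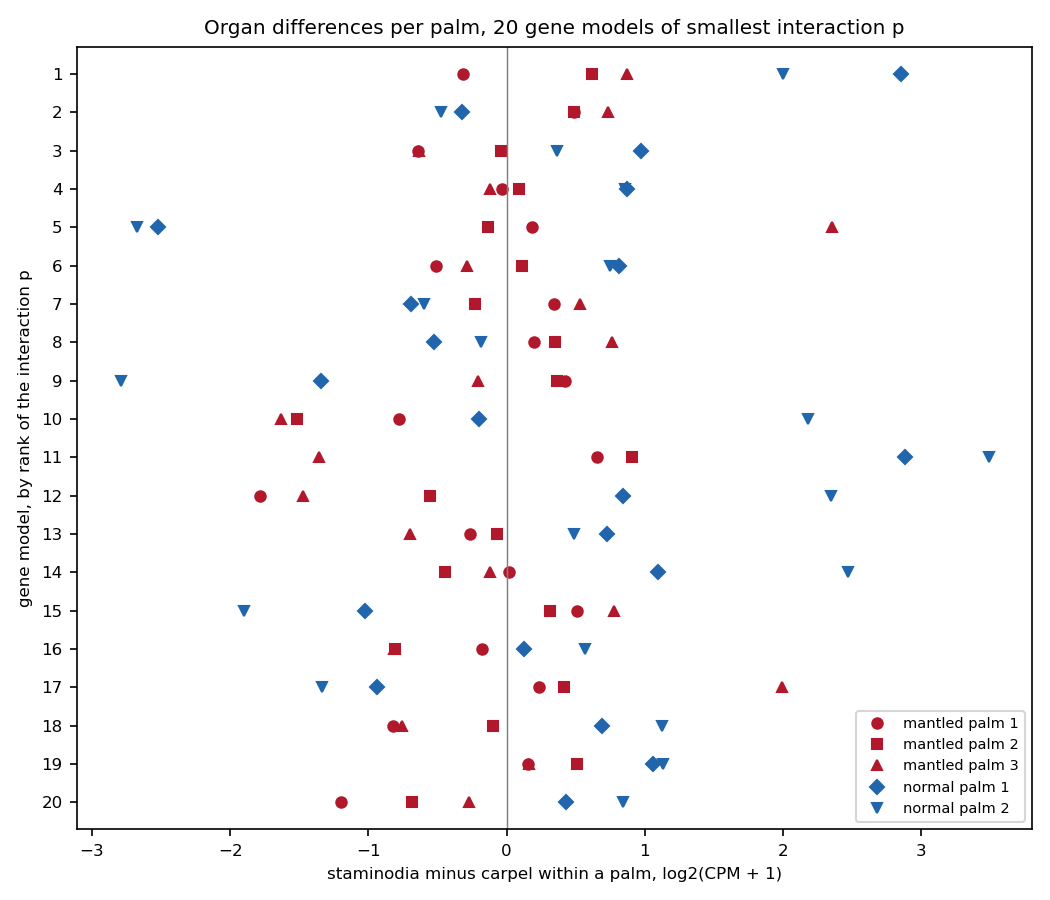
Staminodia minus carpel within each palm, on the log2(CPM + 1) scale, for the 20 gene models of smallest interaction p in order of rank, with mantled palms in red and normal palms in blue. In the 13 models with a negative interaction the red markers lie to the left of the blue ones, in the 7 with a positive interaction to the right, and the phenotype means have opposite signs in 17 of the 20, some of them close to 0.

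The mean organ differences of mantled and normal palms had opposite signs in 10 of the 13 negative and in all 7 positive models, or 17 of the 20, beside 46.7% of all models tested. Single palms were less uniform. In 6 of these 17 models the mantled palms had both signs, and in 1 other the normal palms did. Every mantled palm was opposite in sign to every normal palm in 10 of the 20, 6 negative and 4 positive, beside 5.60% of all models tested. The 20 were picked by the interaction itself, which favours opposite signs, so these shares are a description only and were not tested. In the 3 other negative models, among them the p5_sc00322 model, the mean organ difference had the same sign and was larger in normal palms. The same sign holds for the means and not for every palm. Mantled palm 1 was at -0.32 in the p5_sc00322 model, and mantled palm 3 at -1.36 in the model of rank 11. In none of the 20 was the mean larger in mantled palms with the same sign. The shares of these forms over all models tested were not counted.

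In the 13 negative models the mean organ difference ran from -1.31 to 0.39 in mantled palms (median -0.34), against 0.35 to 3.18 in normal palms (median 0.91). In the 7 positive models it ran from 0.19 to 0.88 in mantled palms (median 0.53), against -2.60 to -0.36 in normal palms (median -1.14). The interactions were -3.19 to -0.82 in the negative models (median -1.37) and 0.80 to 4.03 in the positive ones (median 2.01). In both directions the median organ difference of these listed models was larger in size in normal than in mantled palms. The models were picked by the interaction itself, and the normal means cover fewer palms than the mantled means. The same comparison was not made over all models tested. Whether organ differences are smaller in mantled palms in general was therefore not tested.

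The group that held the highest mean level differed with the direction. Normal staminodia were highest in 12 of the 13 negative models and mantled carpel in the remaining 1, and mantled staminodia were highest in all 7 positive models. Over the 335 negative models with an unadjusted p under 0.05, normal staminodia were highest in 235 (70.1%) and mantled carpel in 79 (23.6%), beside 41.2% and 28.6% of all 9316 models with a negative value. Over the 233 positive ones, mantled staminodia were highest in 134 (57.5%) and normal carpel in 90 (38.6%), beside 41.3% and 40.5% of all 7484 models with a positive value. The gap between phenotypes was larger in staminodia than in carpel in 60.6% of the negative and 78.1% of the positive models with an unadjusted p under 0.05, beside 49.2% and 57.4% of all negative and positive models tested. The highest group and the interaction come from the same counts, so these shares were not tested.

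**Figure D3:**
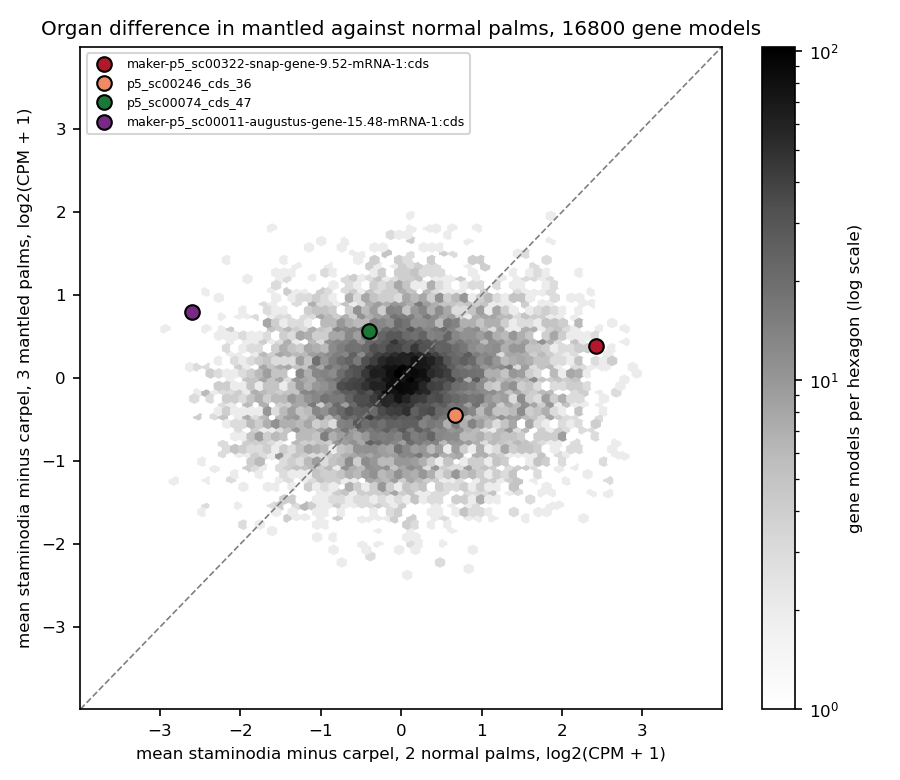
Mean staminodia minus carpel difference over the 3 mantled palms (vertical axis) against that over the 2 normal palms (horizontal axis), on the log2(CPM + 1) scale, for all 16800 gene models tested, shaded by the number of models per hexagon on a log scale. The dashed line marks equal differences, and the 4 named models lie off it, the 2 with a positive interaction above and the 2 with a negative one below.

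Organ differences were also compared between single palms, as a description. Over the 2267 models with a mean of 100 CPM or more, Pearson's r of the organ difference between palms was 0.227 to 0.404 in the 4 pairs of the same phenotype and 0.104 to 0.406 in the 6 pairs of different phenotype. Over all 16800 models it was 0.040 to 0.072 and 0.015 to 0.080 in these pairs. The ranges overlapped at both levels. These correlations are across gene models, which are not independent and share their palm's libraries and depth.

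Palms differed in how widely their organ differences spread. The SD over all models tested was 0.939, 0.801 and 1.28 in mantled palms 1, 2 and 3, against 0.600 and 1.64 in normal palms 1 and 2. Normal palm 2 also had the fewest reads over both organs, at 2153546 in staminodia and 2349579 in carpel, and normal palm 1 had 7516856 and 7499404. At 100 CPM or more the SD was 0.347, 0.304 and 0.509 in the mantled palms, against 0.316 and 0.515 in the normal palms. The part that depth has in these spreads was not tested.

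An organ difference seen in normal palm 1 was followed into the other palms, a description added after the data had been seen. Among models with a mean of 30 CPM or more, 62 were higher in staminodia by at least 1 on the log2 scale in normal palm 1. Their median organ difference was 0.29, 0.46 and 0.85 in mantled palms 1, 2 and 3, against 0.92 in normal palm 2. The same direction was shown by 62.9%, 82.3% and 80.6% of them in the mantled palms and by 82.3% in normal palm 2. Of all models at that level, 55.8%, 50.1% and 49.99% were higher in staminodia in the mantled palms and 52.8% in normal palm 2. The share in mantled palm 1 was thus close to that of all models, and those in mantled palms 2 and 3 and in normal palm 2 were above it.

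The 53 models that were higher in carpel in normal palm 1 had medians of -0.21, -0.48 and -0.54 in the mantled palms, against -0.69 in normal palm 2. Of these, 66.0%, 73.6% and 71.7% kept their direction in the mantled palms and 79.2% in normal palm 2, beside 44.2%, 49.9% and 50.01% of all models in the mantled palms and 47.2% in normal palm 2. Models picked the same way in the shallower normal palm 2 numbered 598 higher in staminodia and 502 higher in carpel. The medians of the first set were 0.12, 0.07 and 0.06 in mantled palms against 0.03 in normal palm 1, and those of the second -0.04, -0.05 and -0.12 in mantled palms against -0.13 in normal palm 1. With a minimum mean of 100 CPM, the 77 models of the first kind had medians of 0.21, 0.23 and 0.27 in mantled palms against 0.23 in normal palm 1. The 52 of the second kind had 0.00, -0.07 and -0.30 in mantled palms against -0.15 in normal palm 1. With picks from normal palm 2 the other normal palm thus did not stand above all mantled palms in staminodia at either minimum. Among the models higher in carpel, normal palm 1 was further from 0 than every mantled palm at 30 CPM. At 100 CPM mantled palm 3 was further from 0 than normal palm 1.

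**Figure D4:**
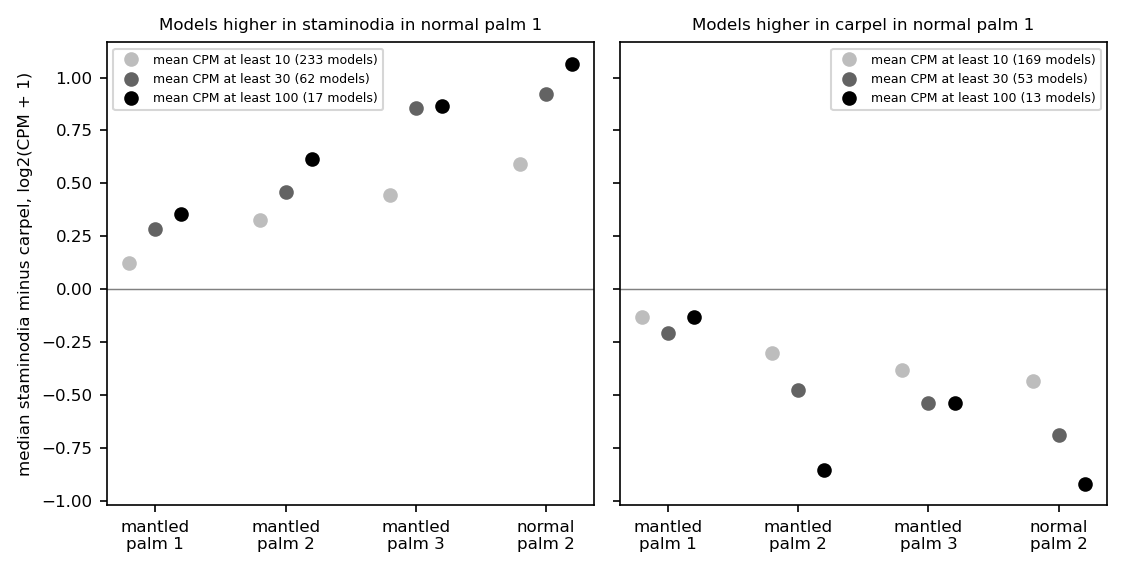
Median staminodia minus carpel difference, on the log2(CPM + 1) scale, in the 3 mantled palms and in normal palm 2 of gene models that differed by at least 1 in normal palm 1, higher in staminodia on the left and higher in carpel on the right, with shades for minimum mean levels of 10, 30 and 100 CPM. All medians keep the sign they had in normal palm 1, and mantled palm 1 lies nearest to 0 on both sides at every minimum.

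The level of a model limited what the test could show. The median SE of the log2 interaction was 2.76 in the 6287 models under 10 CPM, 1.04 in the 4522 models of 10 to 30 CPM, 0.521 in the 3724 models of 30 to 100 CPM and 0.293 in the 2267 models of 100 CPM or more. The share with an unadjusted p under 0.05 was 0.811%, 3.07%, 5.53% and 7.59% in these classes. Both called models were in the highest class. In both classes below 30 CPM the median SE was above the interaction of p5_sc00074_cds_47 (0.97). A difference of that size was thus not detectable in a typical model of these classes. In both classes above 30 CPM the median SE was still above the SE of p5_sc00074_cds_47 itself (0.185). A difference of 0.97 need not have been called in a typical model there either.

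The count of called models depended on the libraries and the tool. DESeq2 called 11 (4 positive, 7 negative) and limma voom 9 (3 positive, 6 negative), and both tools shared the 2 models of edgeR. None was called by edgeR without mantled replicate 1 (400 models with an unadjusted p under 0.05), without mantled replicate 3 (475) or without normal replicate 2 (682). Without mantled replicate 2 there were 7 calls, without normal replicate 1 there were 4, and without normal replicate 3 there were 3, all negative. Without normal palm 1, where normal palm 2 alone stands for the normal phenotype and its spread is taken from the mantled palms, the count was 499 (194 positive, 305 negative), the 2 models of the full set among them. The values that the named models took are in the plot of the interaction under each setting.

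**Figure D5:**
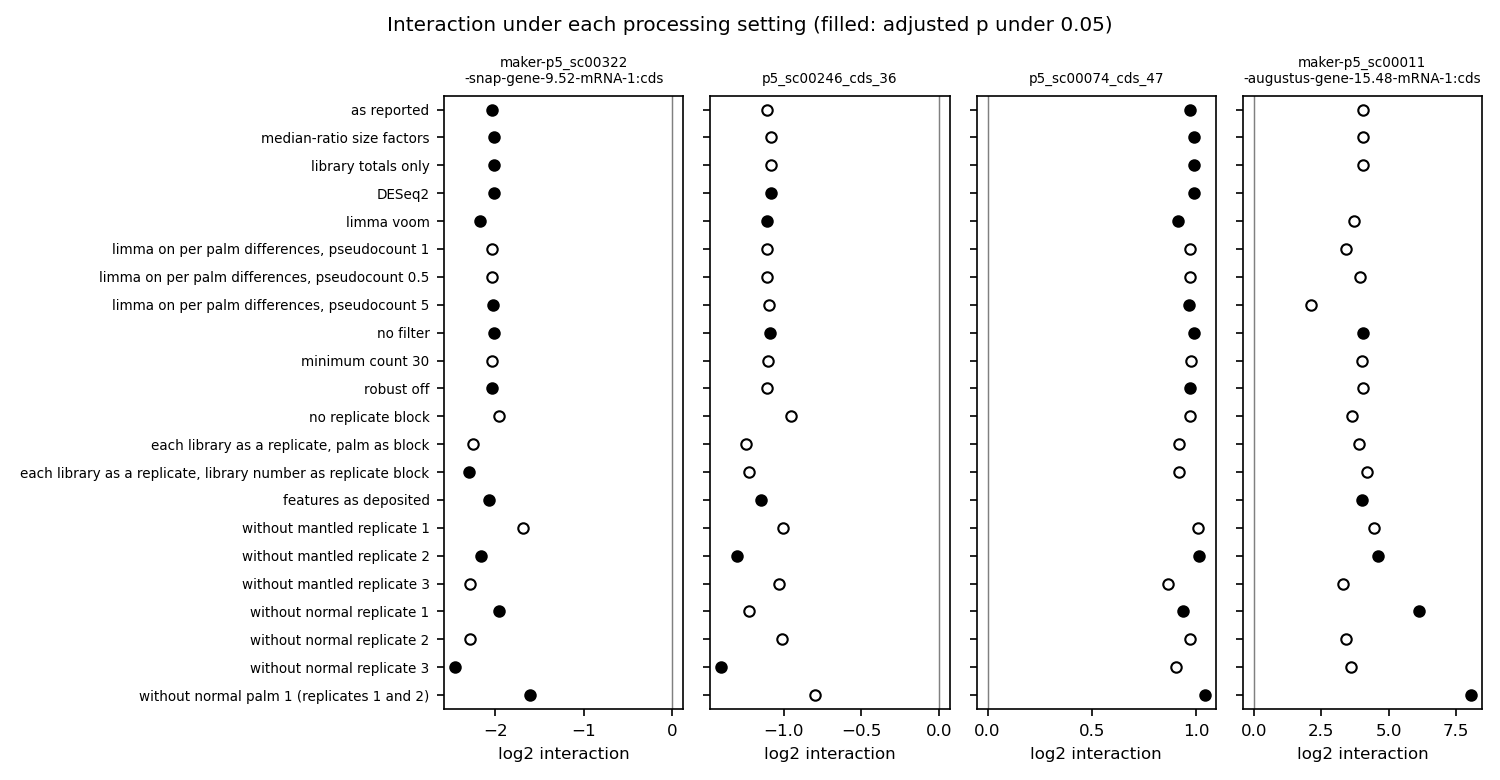
Log2 interaction of the 4 named gene models, 1 panel each, as reported and under every alternative setting that gave an adjusted p, with filled points for an adjusted p under 0.05 and open points otherwise. No point crosses 0 in any panel, and in the panels of the p5_sc00322 model and p5_sc00074_cds_47 filled and open points lie at similar sizes.

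With the features left as deposited, 29923 were tested and 7 were called in edgeR, 1 positive and 6 negative. Of the 7, 5 are the only feature of their model and 2 are 1 part of models with 5 and 3 parts. These 2 had interactions of -3.03 and -2.53 as features and -2.73 and -2.29 as models. All 7 had the same sign and an unadjusted p under 0.05 as models, and 1 of them, the p5_sc00322 model, was called as a model.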

How the data were processed

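Per the labels' protocols, total RNA of captured tissue was depleted of ribosomal RNA and made into libraries with a stranded SMARTer kit. The submitters' processing notes name HTSeq 0.6.1p1, TopHat2 2.0.13, CASAVA 1.8.2 and the trimmers cutadapt and Trim Galore. The strand setting of the counting is not given in the sources used here, nor are build and annotation. Whether reads of overlapping genes on opposite strands were counted apart is therefore not known. The authors deposited raw read counts per feature, 1 table per library.

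The 5 rows that name no feature entered neither library sizes nor tests: reads on no feature (46.9% to 50.5%), ambiguous reads (10.9% to 14.3%), reads aligned to several places (5.78% to 16.7%) and 2 further classes. Assigned reads were 25.3% to 32.2%. Of 100342 features, 92649 are parts of 18394 gene models by the form of their identifiers and 7693 stand alone. This reading was not checked against an annotation. None of the identifiers (0) matched 185249 reference names.

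Normal replicates 1 and 2 of each organ were summed, which gave 10 palm by organ sums. Before summing they differed by more than sampling noise (chi-square per degree of freedom 7.83 and 7.97, against 18.6 to 32.8 between palms). The model was fitted in edgeR 4.0.16 (R 4.3.3) with palm, organ, and organ by phenotype, after filterByExpr (minimum count 10), with TMM factors and robust glmQLFit, followed by glmQLFTest and Benjamini-Hochberg adjustment at 0.05. The fit left 3 residual degrees of freedom and borrowed a median of 37.6 prior degrees of freedom across models, so p-values rest largely on shared spread. Each SE is the log2 interaction over the square root of F. Organ differences use log2(CPM + 1), and 3 against 2 palms cannot pass 0.05 in an exact permutation test. Palms pair the organs through the palm labels. Same-palm deviations of staminodia and carpel from their group means correlated at 0.206 to 0.534 over 10513 models. Those of different palms (-0.349 to -0.131) are no separate evidence, since centring on means of 3 or 2 palms pushes them below 0.

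The named models are the 2 of smallest p in each direction. Members, lists and tests were chosen with earlier results of these data known. Alternatives used DESeq2 1.42.0, limma 3.58.1, other scalings, pseudocounts (0.5 and 5 CPM), filters, replicate units and each replicate left out. The steps were tested on simulated data, in which 200 models were given a known interaction. Apart from that, palms and organs had equal mean levels there, so how the fit handles differences between palms was not tested.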

Additional observations from a re-analysis of the deposited data

Results flagged for a closer look

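The interaction is itself a test of whether the organ difference depends on the phenotype. By that test in edgeR the effect of the organ was called different between mantled and normal palms in 2 gene models. The call held in 13 of 21 alternatives for the p5_sc00322 model and in 10 of 20 for p5_sc00074_cds_47. In the p5_sc00322 model the difference was -2.04 on the log2 scale, with organ differences of -0.32, 0.61 and 0.87 in mantled palms against 2.85 and 2.00 in normal palms. In p5_sc00074_cds_47 it was 0.97, with organ differences of 0.49, 0.49 and 0.73 in mantled palms against -0.33 and -0.47 in normal palms. Groups of 3 libraries are too small to be searched for a single library far from the others.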

How the results depend on the processing

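No interaction of the 4 named models changed sign under any alternative that gave a value. The count of called models, 2 as reported, was also 2 with median-ratio size factors, library totals alone, the robust option off, or limma on per palm differences with a pseudocount of 5. It was 11 with DESeq2, 9 with limma voom, 6 with no filter and 7 with features as deposited. It was 0 with limma on per palm differences at a pseudocount of 1 or 0.5 (974 and 932 models with an unadjusted p under 0.05) and 0 with a minimum count of 30 (457). With no replicate block it was 0 (224). Taking all 12 libraries as replicates, it was 0 with the palm as block (772) and 1 with the library number as replicate block. Leaving out replicates gave 0 to 499, and with normal palm 1 or normal palm 2 out the spread is that of the mantled palms alone. The cause of these changes was not tested. With no replicate block the interaction was -1.96 in the p5_sc00322 model and 0.97 in p5_sc00074_cds_47, and neither was called. DESeq2 gave no adjusted p for the p5_sc00011 model. Models whose palms do not overlap were 11.2% with mantled below and 8.01% with mantled above as reported. Over the same 16800 models, other pseudocounts and scaling gave 1816 to 1896 below and 1330 to 1444 above. With a minimum count of 30 they numbered 1441 below and 1196 above, out of only 13372 models. With minimum means of 10 and 100 CPM, the models higher in staminodia in normal palm 1 (233 and 17) had medians of 0.12, 0.33 and 0.45, and of 0.36, 0.61 and 0.87, in mantled palms against 0.59 and 1.07 in normal palm 2. Depth limits the low models most, and reads without molecular identifiers are not independent molecules, so the floor given for 0 reads covers counting error only.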

Other observations

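Gene models with no read in 1 of the 4 groups and at least 1 read in every palm by organ sum of the other 3 groups numbered 13 for mantled staminodia, 0 for mantled carpel, 3 for normal staminodia and 10 for normal carpel. Most rest on few reads. With at least 5 reads required in every other sum, 1 model was left, at 0 in normal carpel and with 7 to 40 reads in the sums of the other groups. Its interaction had an unadjusted p of 0.0825 and an adjusted p of 1 in edgeR, so the interaction was not called at this depth. The zero in normal carpel was not itself tested against the other groups.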
